A study of Mus musculus with 12 samples.

Results

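The genes of the contractile actin cytoskeleton were followed through the conversion of mouse fibroblasts to pluripotent cells. Members were taken from the table by symbol, and the list was drawn up with earlier results of these data known: the actins Acta2 and Actg2, the calponin family genes Tagln, Cnn1 and Cnn2, the myosin light chain Myl9, the tropomyosins Tpm1 and Tpm2, the caldesmon Cald1 and the filamin Flna. All 10 symbols were found among 24098 genes of the expression table, and all 10 were among the 14178 genes that reached 1 FPKM in at least 1 library. FPKM counts sequenced fragments relative to transcript length and to the mapped fragments of the library; it is a level per transcript length, so that genes of one library can be set beside each other.

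Poly(A) RNA was sequenced in 12 libraries, and each condition had 1 of them. Fibroblasts of mouse embryos (MEFs), isolated from embryos whose Oct4 gene was followed by an IRES-EGFP reporter, were infected with pMXs retroviruses carrying Oct4, Sox2, Klf4 and c-Myc (OSKM). D0 and D3 were the unsorted cells of days 0 and 3. On days 6 and 9, sorting for Thy-1, which fibroblasts carry at their surface, gave the negative fractions D6T- and D9T- and the positive fractions D6T+ and D9T+. On days 12 and 16, sorting for SSEA-1, a carbohydrate antigen of mouse pluripotent cells, gave the positive fractions D12S+ and D16S+ and the negative fractions D12S- and D16S-. The study treats Thy-1- and SSEA-1+ cells as the successful route and their counterparts as the unsuccessful route. Fully reprogrammed iPSCs derived from MEFs, and the embryonic stem cell line ESD3 (mESCs), which received no OSKM, were the end points. The labels give a medium with serum for MEFs and FF medium, with serum replacement, LIF, bFGF and CHIR99021, for reprogramming cells, iPSCs and mESCs, while the methods of the study also name other media for each of the latter. The medium of the D0 cells at collection is not stated, and OSKM and a change of medium cannot be told apart between D0 and the later conditions. The labels do not say whether the iPSC library came from 1 clone. With 1 library per condition, no difference here has a replicate check and no test was possible.

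Actin filaments that carry non-muscle or smooth muscle myosin form stress fibres, the contractile bundles with which fibroblasts pull on their surroundings. Smooth muscle α-actin (Acta2), transgelin (Tagln) and calponin 1 (Cnn1) are markers of smooth muscle and of myofibroblasts, the contractile fibroblasts of wounds. Serum response factor (SRF), with the coactivators Mkl1, Mkl2 and myocardin (Myocd), drives many of these genes from a DNA element called the CArG box. Fibroblasts in culture are flat and rich in stress fibres, and they lose this shape when they turn into compact, epithelial-like colonies during reprogramming.

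Promoter windows of RefSeq (build GRCm38.p6, 250 bases before to 50 bases after a start site) were matched by symbol for 8 of 10 members, with 9 windows in all, among 32851 windows. Actg2 and Tagln had no entry. The CArG box without mismatch lay in the windows of Myl9 and Cnn2, and in 1.63% of all windows. When 1 of the 6 inner letters was allowed to be other than A or T, a form added after the values had been seen, the element was also found in Acta2, and 9.98% of all windows held it. The 3 sequences are printed because they hold every such match among the members. Each shows the 250 bases before the start site, 5′ to 3′ on the strand of the gene, with CArG matches in capitals.
Myl9, chr2:156775214-156775463, plus strand: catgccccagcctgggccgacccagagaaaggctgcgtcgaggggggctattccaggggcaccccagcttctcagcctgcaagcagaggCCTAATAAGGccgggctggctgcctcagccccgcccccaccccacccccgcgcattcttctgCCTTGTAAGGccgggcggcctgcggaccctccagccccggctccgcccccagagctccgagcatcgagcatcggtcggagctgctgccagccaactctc
Cnn2, chr10:79988350-79988599, plus strand: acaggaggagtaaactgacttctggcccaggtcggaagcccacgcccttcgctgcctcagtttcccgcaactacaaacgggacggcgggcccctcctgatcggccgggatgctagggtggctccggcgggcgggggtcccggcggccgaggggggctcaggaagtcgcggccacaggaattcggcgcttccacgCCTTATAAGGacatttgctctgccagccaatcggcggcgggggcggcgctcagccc
Acta2, chr19:34255374-34255623, minus strand: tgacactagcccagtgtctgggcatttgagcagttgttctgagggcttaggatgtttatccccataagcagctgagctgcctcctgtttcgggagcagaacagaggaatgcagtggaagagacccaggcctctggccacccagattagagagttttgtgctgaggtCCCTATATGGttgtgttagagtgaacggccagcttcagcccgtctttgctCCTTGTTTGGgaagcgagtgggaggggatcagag

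Counted from the start site, the matches of Myl9 began at -161 (CCTAATAAGG, no mismatch) and at -99 (CCTTGTAAGG, 1 mismatch). The match of Cnn2 began at -56 (CCTTATAAGG). Those of Acta2 began at -84 (CCCTATATGG) and at -34 (CCTTGTTTGG), each with 1 mismatch. The letters TATAAA, searched on both strands, were in 13.6% of all windows and, among the members, in that of Cald1 alone, at -186. These matches describe the letters of the windows and not binding.

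In the starting fibroblasts the members were abundant. Their summed level in D0 was 5183 FPKM, which was 0.799% of the total FPKM of that library. Tpm1, whose product winds along actin filaments, was highest at 1667 FPKM, followed by Tagln at 974 FPKM and Acta2 at 675 FPKM. Flna, which crosslinks actin filaments and ties them to integrins, was at 486 FPKM, and Cnn2 at 398 FPKM. Cald1 (209 FPKM), Actg2 (73.4 FPKM) and Cnn1 (30.3 FPKM) were the lowest. Highest levels were reached in D0 by 7 members, in D3 by Actg2 and Cnn1, and in D6T+ by Cald1.

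The members' summed level over time differed between the routes. D3 had 3687 FPKM, or 71.1% of D0. On days 6, 9, 12 and 16 the successful route had 449.5, 552, 518 and 516 FPKM, which was 8.67%, 10.6%, 10.0% and 9.95% of D0. The unsuccessful route had 2038, 1257, 759 and 1257 FPKM, which was 39.3%, 24.3%, 14.6% and 24.3% of D0. The low level was thus present from D6T- on in the successful route, whereas in the unsuccessful route the sum was stepwise lower until D12S- and higher again in D16S-. iPSCs had 1481 FPKM (28.6% of D0) and mESCs 291 FPKM (5.61% of D0). In such bulk libraries, fewer cells of a type and less RNA per cell cannot be told apart.

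**Figure D1:**
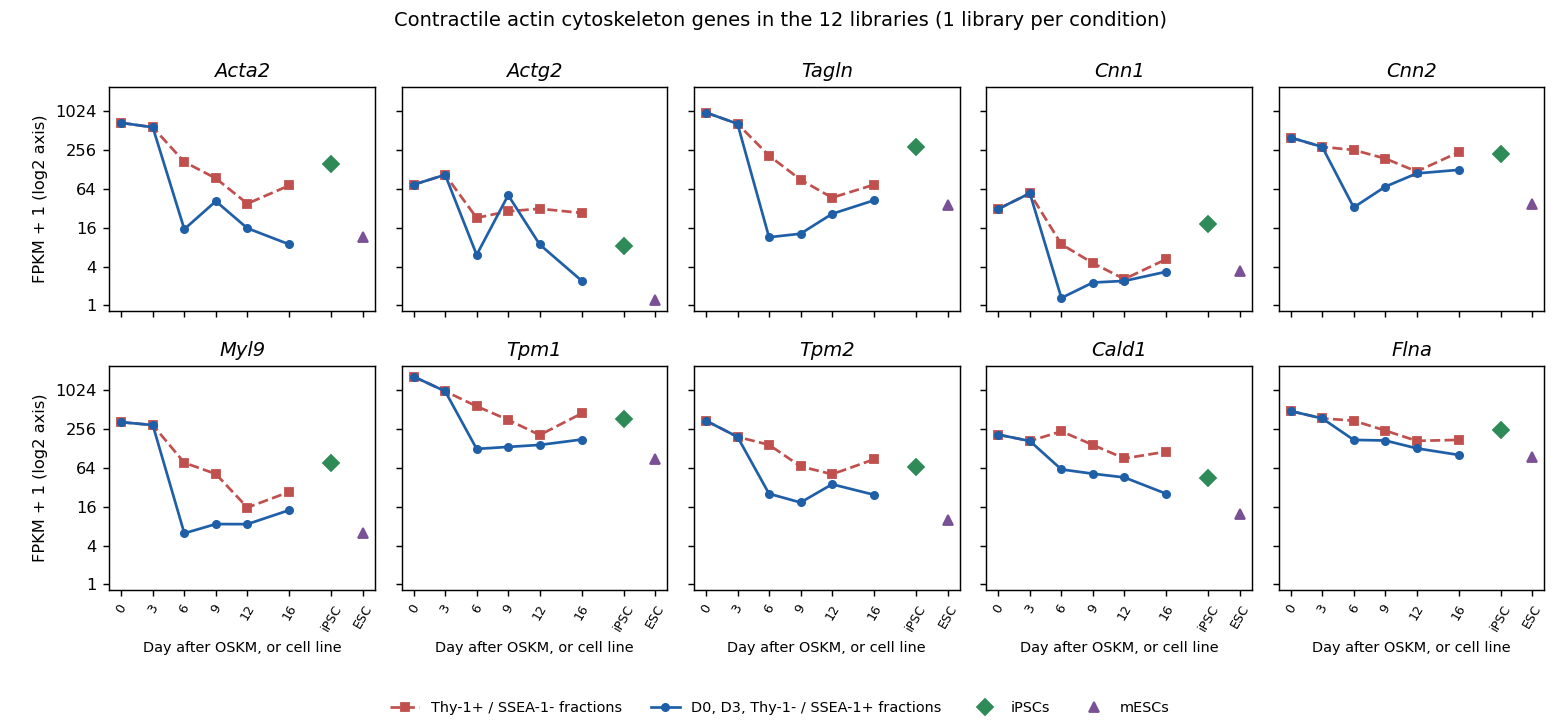
FPKM + 1 (log2 axis) of each member against the day after OSKM, with iPSCs and mESCs at the right; blue circles are D0, D3 and the Thy-1- or SSEA-1+ fractions, red squares D0, D3 and the Thy-1+ or SSEA-1- fractions, 1 library per point. A steep blue step from D3 to D6T- is seen for Acta2, Tagln, Cnn1 and Myl9 and is shallow for Cald1 and Flna, and every green diamond (iPSCs) lies above its purple triangle (mESCs).

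Acta2, which encodes the actin of smooth muscle stress fibres, started at 675 and 575 FPKM on days 0 and 3. Along the successful route its levels were 14.2, 40.2, 14.7 and 7.81 FPKM on days 6, 9, 12 and 16. The matching levels along the unsuccessful route were 166, 92.2, 36.8 and 71.4 FPKM. All fractions of the successful route were therefore below their counterparts of the same day, with D16S+ the lowest of all 12 libraries. iPSCs, with 152 FPKM, were the fourth highest library, whereas mESCs had 10.4 FPKM.

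Actg2, the γ-actin of enteric smooth muscle, was the member with the most divergent profile. Its level was 73.4 FPKM on day 0 and 105 FPKM on day 3. Levels along the successful route were 5.08, 50.0, 7.79 and 1.40 FPKM on days 6, 9, 12 and 16, and D9T- thus stood out from its neighbours. Levels along the unsuccessful route were 21.7, 27.7, 30.5 and 26.1 FPKM. Among the members, Actg2 alone had a higher level in D9T- than in D9T+. iPSCs had 7.48 FPKM, and mESCs, with 0.192 FPKM, were below 1 FPKM.

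Tagln, which encodes the actin-binding protein transgelin (SM22), had 974 and 652 FPKM on days 0 and 3. On days 6, 9, 12 and 16 the successful route had 10.4, 11.9, 25.2 and 41.5 FPKM of Tagln, and the unsuccessful route had 208, 87.9, 45.7 and 73.3 FPKM. The lowest library was thus D6T-, with 1.07% of the D0 level, and the routes approached each other by day 12. iPSCs, with 280 FPKM, came next after D0 and D3, and mESCs had 34.9 FPKM. The Tagln locus of the table was shared with Pcsk7 and Rnf214, and the annotated gene overlaps Pcsk7 on the opposite strand. The labels name a stranded library kit and the methods of the study another TruSeq kit, and whether the counting used strand was not given in the sources used here, so that reads of Tagln and Pcsk7 may not have been told apart where the genes overlap.

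Cnn1, the smooth muscle calponin that slows actomyosin, was the lowest member in 9 of 12 libraries. Days 0 and 3 had 30.3 and 53.7 FPKM. On days 6, 9, 12 and 16 the successful route had 0.304, 1.26, 1.39 and 2.33 FPKM, against 7.86, 3.51, 1.56 and 4.22 FPKM in the unsuccessful route. Cnn1 was the only member under 1 FPKM in D6T-, and the routes were closest on day 12. iPSCs, with 17.6 FPKM, came next after D3 and D0, and mESCs had 2.40 FPKM.

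Cnn2, the more widely expressed calponin, kept higher levels. Days 0 and 3 had 398 and 285 FPKM. Fractions of the successful route had 32.1, 68.2, 110 and 125 FPKM on days 6, 9, 12 and 16, and those of the unsuccessful route 256, 188, 118 and 236 FPKM. As for Tagln and Cnn1, D6T- was the lowest library and each later fraction of the successful route was higher than the one before. The end points had 225 FPKM (iPSCs) and 36.3 FPKM (mESCs).

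Myl9, a regulatory light chain of smooth muscle and non-muscle myosin whose phosphorylation switches contraction on, had 327 and 295 FPKM on days 0 and 3. Fractions of the successful route had 5.21, 7.63, 7.60 and 13.2 FPKM on days 6, 9, 12 and 16, and their counterparts 76.1, 50.6, 14.6 and 26.2 FPKM. As for Tagln, D6T- was the lowest library and iPSCs, with 76.2 FPKM, were among the 3 highest. mESCs had 5.28 FPKM.

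The tropomyosins, which stabilise actin filaments and gate myosin, stayed above 8 FPKM throughout. Tpm1 had 1667 and 987 FPKM on days 0 and 3, then 125, 135, 144 and 175 FPKM along the successful route and 577, 355, 206 and 447 FPKM along the unsuccessful route. Tpm2 had 344 and 193 FPKM on days 0 and 3, then 24.5, 17.6, 34.7 and 23.6 FPKM along the successful route and 145, 66.7, 50.1 and 86.0 FPKM along the unsuccessful route. For both genes every fraction of the unsuccessful route was above every fraction of the successful route. Tpm1 had 367 FPKM in iPSCs but 87.7 FPKM in mESCs, and Tpm2 had 66.0 FPKM in iPSCs but 8.93 FPKM in mESCs.

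Cald1, which binds actin and calmodulin and inhibits actomyosin, had its highest level in D6T+ with 235 FPKM, above days 0 and 3 with 209 and 166 FPKM. Along the successful route it was lower at each step, with 59.7, 51.1, 44.6 and 24.4 FPKM on days 6, 9, 12 and 16. After day 6 the unsuccessful route had 144, 88.8 and 114 FPKM. iPSCs, with 43.0 FPKM, held rank 10 of 12 libraries for Cald1, in contrast to their high rank for Tagln, Cnn1 and Myl9, and mESCs had 11.4 FPKM. The annotated Cald1 gene overlaps 4 genes on the opposite strand.

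Flna had the narrowest range. Days 0 and 3 had 486 and 374 FPKM, the successful route had 173, 169, 128 and 101 FPKM on days 6, 9, 12 and 16, and the unsuccessful route had 345, 242, 167 and 173 FPKM. The end points had 248 FPKM (iPSCs) and 93.3 FPKM (mESCs). Flna was the highest member in D6T-, D9T- and mESCs, and Tpm1 in the remaining libraries.

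Differences below are of log2(FPKM + 1), a scale that understates the change of low genes, and a gene is counted when it differed at least 2-fold. The intervals that cuffdiff gave to each FPKM were wide: over the 120 values of the members the median half-width was 104% of the FPKM, and the lower end was 0 in 74. The order of neighbouring levels above was therefore not resolved by these intervals. In the fold comparisons of members below, the intervals also overlapped, except for Cnn1 and Myl9 between D6T- and D3. Comparisons that share a library, such as those with D0 or D3, are not independent of each other.

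The comparison of D3 with D0 showed no member past 2-fold. None was at least 2-fold lower in D3, beside 8.67% of all genes kept, and 0 of 10 were at least 2-fold higher, beside 5.76%. The median difference was -0.35, against -0.02 over all genes kept. Tpm2 (-0.83), Tpm1 (-0.76) and Tagln (-0.58) had the lowest values, and Cnn1 (0.81) and Actg2 (0.51) the highest. When every library was scaled to the same total FPKM, which moved the median of all genes in this comparison from -0.02 to 0.12, Acta2 and Myl9 changed sign and Cnn1 passed 2-fold higher. In the same interval the summed level of 5 fibroblast markers went from 6074 to 1705 FPKM, to a lower share of D0 than the sum of the contractile genes.

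A large difference lay between day 3 and the Thy-1- cells of day 6. All 10 members were at least 2-fold lower in D6T- than in D3, beside 6.62% of all genes kept, with a median difference of -3.62 against 0.02 over all genes. Tagln (-5.84), Myl9 (-5.57), Cnn1 (-5.39), Acta2 (-5.25) and Actg2 (-4.12) differed most. Cnn2 (-3.12), Tpm1 (-2.97) and Tpm2 (-2.93) were intermediate, and Cald1 (-1.46) and Flna (-1.11) differed least. For Cnn1 and Myl9 the cuffdiff intervals of both libraries did not overlap, and the share of all genes with this property was not computed. Set against the same D3 library, in a comparison added after the values had been seen, D6T+ had 5 members at least 2-fold lower, beside 1.79% of all genes kept, with a median of -1.21 against 0.00. Those were Cnn1 (-2.63), Actg2 (-2.22), Myl9 (-1.94), Acta2 (-1.78) and Tagln (-1.64), while Cald1 was at 0.50.

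Within the successful route, the members did not share a direction after day 6. From D6T- to D16S+, 5 members were higher: Tagln, Cnn1, Cnn2, Myl9 and Tpm1. The other 5 were lower: Acta2, Actg2, Tpm2, Cald1 and Flna. This is the order of FPKM with no fold threshold and no share of all genes beside it. Tpm2 was nearly equal in D6T- (24.5 FPKM) and D16S+ (23.6 FPKM). At D16S+ all 10 members were at least 2-fold lower than in D0, beside 20.9% of all genes kept, with a median of -3.53 against 0.05. Acta2 (-6.26) differed most and Cnn2 (-1.66) least. At D16S-, 8 members were at least 2-fold lower than in D0, beside 11.4% of all genes kept, with a median of -1.94 against 0.00. Cnn2 (-0.75) and Cald1 (-0.87) were not past 2-fold there. Compared with mESCs, 8 members were still at a higher FPKM in D16S+, with Acta2 and Cnn1 the exceptions. This order too had no threshold and no share of all genes beside it. Flna (101 against 93.3 FPKM) and Cnn1 (2.33 against 2.40 FPKM) were nearly equal in D16S+ and mESCs.

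The fractions of one day were then compared, which holds the day equal. Over the 10 members and 4 days, the fraction of the successful route was the lower one in 39 of 40 pairs of values, by order alone. Over all genes kept, the median difference was 0.00, 0.02, -0.01 and -0.02 on days 6, 9, 12 and 16. The share of all genes that were lower was not computed. The 40 pairs are not independent, because the profiles of the members were alike and each fraction had 1 library. On day 6, 9 members were at least 2-fold lower in D6T- than in D6T+, beside 9.47% of all genes kept, with a median of -2.64 against 0.00. Tagln (-4.20), Myl9 (-3.63) and Acta2 (-3.46) differed most, and Flna (-0.99) was just outside 2-fold. On day 9, 7 members were at least 2-fold lower in D9T- than in D9T+, beside 6.45% of all genes kept, with a median of -1.42 against 0.02. Cnn1, at -0.996, was just outside the threshold and Acta2, at -1.18, just inside it.

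On day 12 the contrast was smaller. Acta2 (-1.27) and Actg2 (-1.84) were at least 2-fold lower in D12S+ than in D12S-, beside 3.03% of all genes kept, and the median was -0.67 against -0.01. Cnn1 and Cnn2 were each at -0.10. On day 16, 5 members were at least 2-fold lower in D16S+ than in D16S-, beside 15.2% of all genes kept, with a median of -1.14 against -0.02. Those were Actg2 (-3.49), Acta2 (-3.04), Cald1 (-2.18), Tpm2 (-1.82) and Tpm1 (-1.35), whereas Tagln (-0.81) and Myl9 (-0.94), which led on day 6, were not past 2-fold. The summed fibroblast markers moved with these contrasts: 259 FPKM in D6T- against 2105 FPKM in D6T+, 249 against 1849 FPKM on day 9, 231 against 633 FPKM on day 12 and 33.8 against 428 FPKM on day 16. Thy1, 1 of these 5 markers, encodes the antigen used for sorting on days 6 and 9. The Thy-1+ fractions of these days held 477 and 491 FPKM of Thy1, and the Thy-1- fractions 3.24 and 3.72 FPKM. This portion of the contrast on days 6 and 9 is thus tied to the sort itself. All 5 markers were past 2-fold in the same direction on both days. The part of the fibroblast markers in the differences of the contractile genes was not tested.

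**Figure D2:**
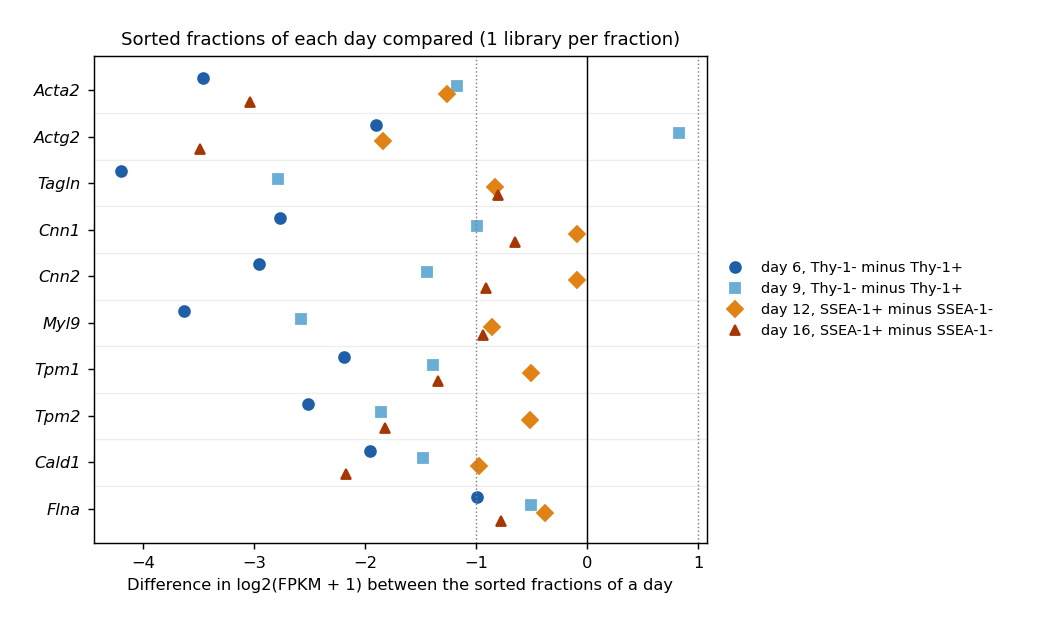
Difference in log2(FPKM + 1) between the sorted fractions of one day for each member, successful minus unsuccessful route, 1 library per fraction; dotted lines mark 2-fold. Points of day 6 lie farthest left for Tagln, Myl9 and Acta2, those of day 16 farthest left for Actg2 and Cald1, and the day 9 point of Actg2 at 0.83 is the only one right of 0.

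Of iPSCs, mESCs and D16S+, the iPSCs had the highest level of every member. All 10 members were at least 2-fold higher in iPSCs than in mESCs, beside 6.79% of all genes kept, with a median difference of 2.68 against -0.01 over all genes. Acta2 (3.75), Myl9 (3.62) and Tagln (2.97) differed most, and Flna (1.40) and Cald1 (1.82) least. Against D16S+, in a comparison added after the values had been seen, 8 members were at least 2-fold higher in iPSCs, beside 4.38% of all genes kept, with a median of 1.63 against -0.01. Acta2 (4.12), Tagln (2.72), Cnn1 (2.48) and Myl9 (2.44) led, and Cald1 (0.80) and Cnn2 (0.84) were not past 2-fold. When libraries were brought to equal totals, which moved the median of all genes in this comparison from -0.01 to -0.14, this count was 7.

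Compared with the starting cells, iPSCs had 7 members at least 2-fold lower than D0, beside 21.6% of all genes kept, with a median of -2.12 against 0.03. Actg2 (-3.13) and Tpm2 (-2.37) differed most, whereas Cnn1 (-0.75), Cnn2 (-0.82) and Flna (-0.97) were not past 2-fold. Set beside the unsuccessful route, iPSCs were above D9T+ for 7 members and above D6T+ for Tagln, Cnn1 and Myl9. This is the order of FPKM with no threshold and no share of all genes beside it. Myl9 was nearly equal in iPSCs and D6T+ (76.2 and 76.1 FPKM), as was Tpm1 in iPSCs and D9T+ (367 and 355 FPKM).

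Markers of other cells were measured beside this result. The 5 fibroblast markers summed to 50.6 FPKM in iPSCs, 37.1 FPKM in mESCs and 33.8 FPKM in D16S+, none at 0, against 6074 FPKM in D0. The 4 pluripotency markers summed to 2808, 3203 and 3962 FPKM in those libraries, again with none at 0, but Dppa5a alone made 2441, 2698 and 3582 FPKM of these sums. Between iPSCs and mESCs, Zfp42 was the only 1 of the 4 past 2-fold. Its level was lower in iPSCs (58.6 against 173 FPKM, a difference of -1.55), a direction that 7.41% of all genes kept also took past 2-fold. The 4 epithelial markers summed to 1477 FPKM in iPSCs, 249.5 FPKM in mESCs and 689 FPKM in D16S+. Of these, 2 of 4 were at least 2-fold higher in iPSCs than in mESCs, beside 6.79% of all genes kept. They were the keratins Krt18 (711 against 36.5 FPKM) and Krt8 (483 against 26.7 FPKM). Cdh1 (203 against 136 FPKM) and Epcam (79.3 against 49.8 FPKM) were not past 2-fold, and Epcam was higher in D16S+, with 150 FPKM. The 5 skeletal muscle markers summed to 67.8 FPKM in iPSCs, of which the muscle actin Acta1 made 67.2 FPKM, and Myod1 was listed at 0. The 7 smooth muscle and pericyte markers summed to 83.4 FPKM in iPSCs, 67.5 FPKM in mESCs and 104 FPKM in D16S+, with none at 0, but Mcam alone made 48.3, 34.6 and 86.6 FPKM of these sums. Lmod1, a leiomodin of smooth muscle, had 7.40, 0.503 and 1.27 FPKM, Des 25.3, 17.8 and 13.4 FPKM and Myh11 0.597, 0.151 and 0.113 FPKM. These 3 markers, named after their values were seen, were thus highest in iPSCs like the members. The rest of the list was not. Pdgfrb was highest in mESCs, with 14.3 FPKM against 1.71 FPKM in iPSCs. Mcam, Cspg4 (2.40 against 0.143 FPKM in iPSCs) and Rgs5 (0.0366 against 0.0253 FPKM) were highest in D16S+. The fibroblast markers did not share a direction between iPSCs and mESCs. Col1a1 was higher in iPSCs (38.7 against 15.2 FPKM in mESCs). Thy1 (3.15 against 9.00 FPKM), Pdgfra (1.07 against 3.55 FPKM), Col1a2 (6.65 against 7.98 FPKM) and Fbn1 (1.06 against 1.37 FPKM) were lower there. The part of fibroblasts and of epithelial, smooth muscle or other cells in the iPSC values was not tested.

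Myh11, the myosin heavy chain that defines mature smooth muscle, was at 2.67 FPKM in D3 at most and at 0.597 FPKM in iPSCs. Over the 12 libraries the smooth muscle and pericyte markers ranged from 59.3 FPKM in D6T+ to 157 FPKM in D12S+, where Mcam made 131 FPKM and Myh11, Lmod1 and Rgs5 were at 0.0820, 0.453 and 0.240 FPKM, the cardiac markers from 1.80 to 66.3 FPKM, the endothelial markers from 9.40 to 62.7 FPKM and the macrophage markers from 10.8 to 135 FPKM. The skeletal muscle markers were at 256 FPKM in D0 and 123 FPKM in D3 and between 3.83 and 67.8 FPKM elsewhere, beside the high contractile levels of D0 and D3, and their part in those levels was not tested.

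**Figure D3:**
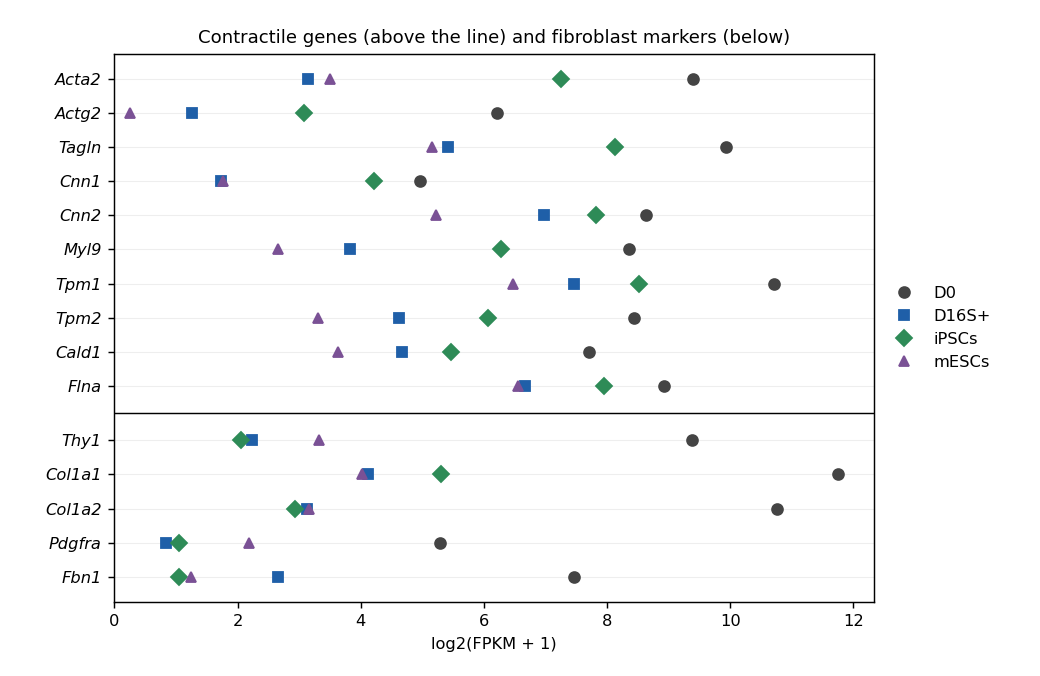
log2(FPKM + 1) of the 10 members (above the line) and of the 5 fibroblast markers (below it) in D0, D16S+, iPSCs and mESCs, 1 library per symbol. iPSCs (diamonds) lie between D0 and the other pluripotent libraries for the 10 members, while for the fibroblast markers they lie closer to D16S+ and mESCs than to D0.

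The members were next set beside the other genes of their families, as shares that carry the wide cuffdiff intervals above. Among 6 actins, Acta2 and Actg2 together made 16.2% of the summed FPKM in D0 and 17.3% in D3. They made 0.839% in D6T-, 0.575% in D16S+, 4.24% in iPSCs and 0.669% in mESCs. The cytoplasmic β-actin Actb had 2822, 1827, 1272, 2944 and 1153 FPKM in D0, D6T-, D16S+, iPSCs and mESCs. After day 3, Acta2 and Actg2 were thus a minor part of the actin message, with D6T+ the highest at 7.01%.

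Among the myosin regulatory light chains, Myl9 made 30.1% in D0, 34.8% in D3 and 1.49% in D6T-, against 12.8% in D6T+. It made 13.5% in iPSCs and 1.77% in mESCs. Its relative Myl12b, which shares its role in non-muscle myosin, was at 302 FPKM in D0 and 214 FPKM in D6T-, so that the share of Myl12b went from 27.8% to 61.2%. Myl12a made 42.1% in D0 and 37.3% in D6T-.

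Among the tropomyosins, Tpm1 and Tpm2 together made 81.8% in D0, 42.6% in D6T-, 56.3% in D16S+, 66.4% in iPSCs and 42.6% in mESCs. Tpm3 made 10.1% in D0, 41.0% in D6T- and 47.9% in mESCs, and its level was 248 FPKM in D0 and 144 FPKM in D6T-. Among the calponins, Tagln, Cnn1 and Cnn2 together made 65.5% in D0, 9.38% in D6T-, 57.6% in iPSCs and 15.9% in mESCs. Tagln2, the transgelin of non-muscle cells, made 23.9% in D0, 67.8% in D6T- and 15.7% in iPSCs. Cnn3, the remaining calponin, made 42.9% in mESCs.

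**Figure D4:**
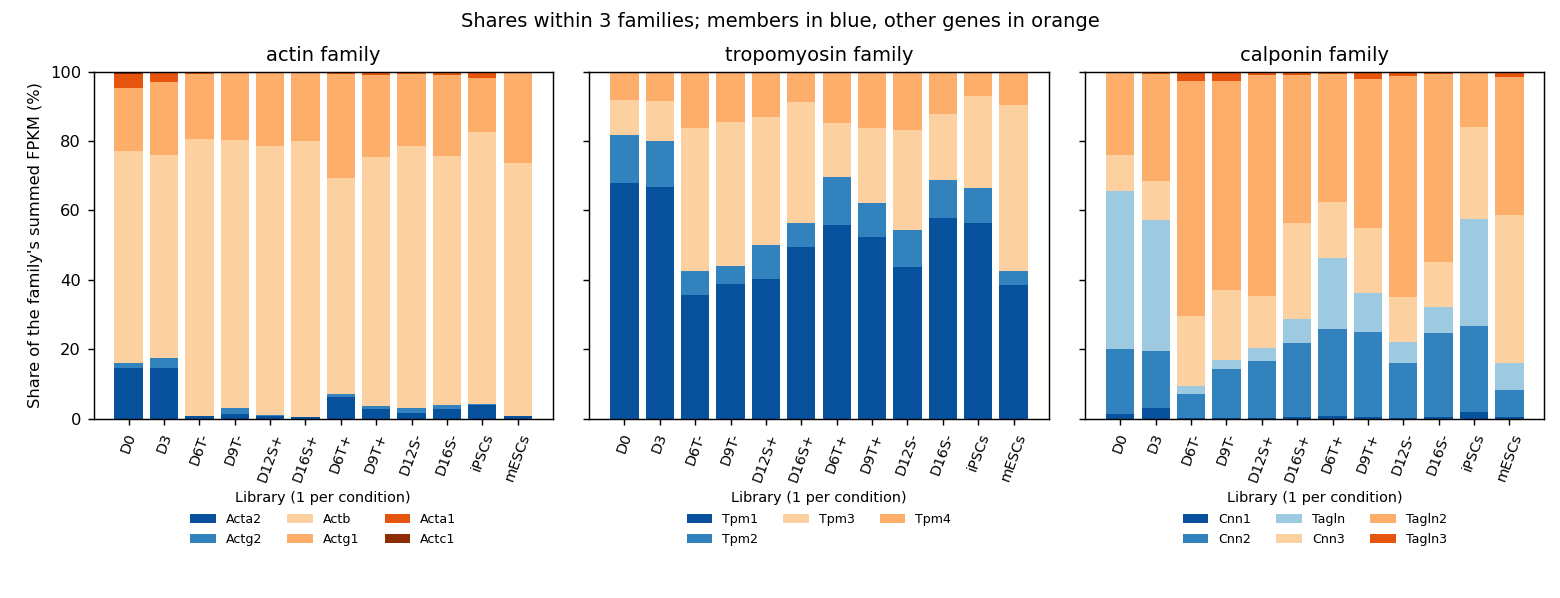
Share of each gene in the summed FPKM of the actin, tropomyosin and calponin families (%) for each of the 12 libraries, with members in blue and other genes in orange; bars add to 100%. The blue part is lowest in D16S+ for actins (0.575%), in mESCs, closely followed by D6T-, for tropomyosins (42.6% in both) and in D6T- for calponins (9.38%), and it is larger in iPSCs than in mESCs in all 3 panels.

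The profiles of the members over the 12 libraries were compared as a description, with no test, because the libraries share a time course and a table. Over the 45 pairs of members the median Pearson r of log2(FPKM + 1) was 0.867 and the median Spearman rho 0.846. Tpm1 and Tpm2 were the most alike pair (r = 0.975), and Actg2 and Tagln the least (r = 0.495). Against the mean of the other members, Tpm1 (r = 0.979), Acta2 (r = 0.970) and Myl9 (r = 0.969) were closest, and Cald1 (r = 0.799) and Actg2 (r = 0.714) were farthest. Among 8794 other genes that reached 10 FPKM, the profiles most like the mean of the members were those of Myl6 (r = 0.956, rho = 0.979), the essential light chain of non-muscle and smooth muscle myosin, of Zyx (r = 0.950, rho = 0.951), a focal adhesion protein, and of Tbc1d2, Tgfb1i1 and Myl12a. Those most like Acta2 alone were Zfand2a (r = 0.956, rho = 0.965), Tmem150a (r = 0.953, rho = 0.958) and Wdr1 (r = 0.953, rho = 0.965), the last a cofactor of actin disassembly.

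A wider list of 27 genes of stress fibres, focal adhesions and their kinases, of which 26 were kept, moved with the members to a smaller extent. From D3 to D6T-, 14 were at least 2-fold lower and none higher, beside 6.62% and 3.96% of all genes kept, with a median of -1.13 against -3.62 for the members. At D16S+, 14 were lower and 1 higher than in D0, beside 20.9% and 20.0% of all genes kept. In iPSCs, 10 were lower and 3 higher than in D0, beside 21.6% and 18.7%. Compared with mESCs, 12 were at least 2-fold higher in iPSCs and none lower, beside 6.79% and 7.41% of all genes kept, with a median of 0.93. Myl6 had the highest level of the list in D0, with 1539 FPKM, against 605 and 333 FPKM in iPSCs and mESCs. Fhl2, a LIM protein of the cytoskeleton and nucleus, had the largest negative difference between iPSCs and D0 (-3.14), with 123, 13.0 and 1.32 FPKM in D0, iPSCs and mESCs. Myh14, a non-muscle myosin heavy chain of epithelia, had the largest positive one (2.33), with 0.0293 and 4.18 FPKM in D0 and iPSCs.

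Of SRF and its coactivators, 3 of 4 genes were kept, and Myocd was below 1 FPKM in every library. Their median difference was -0.42 between D6T- and D3 and -0.33 between D16S+ and D0, against -3.62 and -3.53 for the members. Srf had 32.5, 23.5, 25.6, 49.9 and 18.5 FPKM in D0, D6T-, D16S+, iPSCs and mESCs. It was higher by 0.60 on the log2 scale in iPSCs than in D0 and by 1.38 in iPSCs than in mESCs. Mkl1 was highest in D0 with 37.7 FPKM, and D6T-, D16S+ and iPSCs had 10.3, 8.15 and 19.0 FPKM. From D3 to D6T-, Mkl1 (-1.14) was the only one of the 3 past 2-fold, with a difference close to that of Flna (-1.11), and at D16S+ it was at -2.08 against D0.

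Of 7 secreted ligands and matricellular targets that accompany contractile cells, 6 were at least 2-fold lower in D6T- than in D3, beside 6.62% of all genes kept, and 6 were at least 2-fold higher in iPSCs than in mESCs, beside 6.79%. Thbs1, a matrix protein that activates latent TGF-β, had the highest level of these in D0, with 812 FPKM, and the largest negative difference between iPSCs and D0 (-4.68). Ctgf, a target of YAP and TGF-β signalling, had the largest positive one (1.53), with 31.3, 52.5, 92.7 and 10.9 FPKM in D0, D16S+, iPSCs and mESCs. Ctgf thus took the opposite direction to the members between D0 and iPSCs, and the same direction between mESCs and iPSCs.

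The positions of the members are given in the mm9 build from GENCODE M1. Acta2 lies on chromosome 19 (34315580 to 34329826, minus strand), Actg2 on chromosome 6 (83462899 to 83486259, minus strand) and Cald1 on the same chromosome (34548500 to 34725473, plus strand). Chromosome 9 holds Tagln (45737711 to 45744141, minus strand), Cnn1 (21903725 to 21914074, plus strand) and Tpm1 (66870397 to 66897213, minus strand). Cnn2 lies on chromosome 10 (79451329 to 79458807, plus strand), Myl9 on chromosome 2 (156601156 to 156607394, plus strand), Tpm2 on chromosome 4 (43527583 to 43536637, minus strand) and Flna on chromosome X (71468800 to 71495159, minus strand). Every gene overlapped its locus in the table. Reads that mapped to more than 1 locus had been removed. The 50-base windows of each member's longest transcript were searched in the coding transcripts of other genes. Only 0.404% of Acta2, shared with Actg1, and 1.04% of Tagln, shared with Pcsk7, occurred there, against 0 for the other 8 members. Pseudogenes and other non-coding sequence were not searched, so the loss of reads by this filter was not measured.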

How the data were processed

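The labels name the TruSeq Stranded mRNA kit and the study's methods the TruSeq RNA Sample Prep Kit. The study mapped reads to mm9 with STAR and removed reads with more than 2 mismatches or more than 1 locus. The deposited values are FPKM that the authors computed with cuffdiff, with the interval of each value, for 24098 genes in 12 libraries; software versions and annotation are not given in the sources used here. The absolute depth is unknown. Low values gave a depth relative to D0 between 0.967 and 1.56, and total FPKM ranged from 484968 to 648264. A further 12 status columns were not used. The day and the word "pos" or "neg" in a column name, taken as the result of the sort, gave its sample.

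FPKM were analysed as log2(FPKM + 1) in genes with at least 1 FPKM in at least 1 library (14178), with a fold threshold of 2 and no test, using Python 3.11.15, pandas 2.3.3, numpy 2.4.6 and matplotlib 3.10.9. An FPKM of exactly 0 is given as listed at 0. All members are named; other genes are named as family members, as the highest in D0 or the most changed between D0 and iPSCs in their list, as defining markers, or as the 5 (for Acta2, 3) genes with the most similar profile among those reaching 10 FPKM. An item of the lists is not reported here. Members, lists and comparisons were chosen with earlier results of these data known. The comparisons of iPSCs against D16S+ and of D6T+ against D3, and the CArG form with 1 mismatch were added after values had been seen. Alternatives were a pseudocount of 0.1, scaling to equal totals or by the median of ratios, no filter or one of 5 FPKM, a 4-fold threshold and non-overlapping intervals. The median-of-ratios factors lay between 0.996 (D16S+) and 1.02 (D0), so that this scaling could change little. Fold counts were checked on copies of D0 values, in which 200 of 200 genes given 8-fold changes were recovered. The copies held no noise and no genes of low level. This outcome was therefore fixed and checks the counting step alone.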

Additional observations from a re-analysis of the deposited data

Results flagged for a closer look

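Actg2 was higher in D9T- than in D9T+ by 0.83 on the log2(FPKM + 1) scale (50.0 against 27.7 FPKM), whereas it was lower in the fraction of the successful route on day 6 (-1.90), day 12 (-1.84) and day 16 (-3.49). It drew attention because the direction differed between the days. With 1 library per fraction this difference was not tested, and the cuffdiff intervals of D9T- and D9T+ overlapped. Acta2 was also higher in D9T- (40.2 FPKM) than in D6T- (14.2 FPKM) and D12S+ (14.7 FPKM), but stayed below D9T+ (92.2 FPKM).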

How the results depend on the processing

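No paired analysis was possible because each condition had 1 library, and no replicate could be left out. With a 4-fold threshold, 4 members were lower in D16S- than in D0, 2 in D9T- than in D9T+, 0 in D12S+ than in D12S-, 3 in D16S+ than in D16S- and 2 in D6T+ than in D3, and 4 were higher in iPSCs than in D16S+. The share of all genes past 4-fold was not computed, so these counts have no baseline. By non-overlapping intervals, 2 members were lower in D6T- than in D3 and 0 differed in each other comparison in which members passed 2-fold. The share of all genes with non-overlapping intervals was not computed, so these counts have no baseline either. With equal totals, 1 member was higher in D3 than in D0, and 7 members in place of 8 were higher in iPSCs than in D16S+. The share of higher genes among all genes past 2-fold then went from 39.9% to 56.5% (D3 against D0), from 48.9% to 65.6% (D16S+ against D0), from 52.9% to 68.2% (D16S- against D0) and from 36.1% to 22.9% (iPSCs against D16S+), and with a pseudocount of 0.1 FPKM from 21.9% to 33.1% (D9T- against D9T+). Of the differences of single genes, 5 moved, all with a pseudocount of 0.1 FPKM: Cnn1 in D6T- against D3 (-7.06) and against D6T+ (-4.30), and Actg2 in D16S+ against D0 (-5.61) and D16S- (-4.12) and in iPSCs against mESCs (4.70). No median or single-gene difference that was past 2-fold changed sign. Replacing a member's FPKM by either end of its interval moved 79 of 90 family shares, so these shares are uncertain.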
